A study of Sus scrofa with 9 samples.

Results

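The comparison of untreated Obese-MSCs with Lean-MSCs covered all 18933 gene symbols of the table that holds these 2 groups, and 6 of the 9 swine libraries of the series. Its members were taken without any threshold, as every gene row of that table in Obese libraries 1, 2 and 3 and Lean libraries 7, 8 and 9. MSCs are mesenchymal stem/stromal cells, which were isolated here with collagenase from subcutaneous abdominal fat of female domestic pigs, about 3 months old at the start. Lean pigs ate standard chow and Obese pigs a diet rich in fat and fructose, both for 16 weeks, and each library came from 1 pig. All cells were expanded for 3 weeks in medium with platelet lysate and used at passage 3 to 4. The untreated Obese-MSCs were also the control arm of a vitamin-C experiment, for which third-passage cells were grown on for 1 more passage, and the passage of the Lean-MSCs is given no more closely, so that a difference in passage cannot be told apart from the groups. The other 3 libraries are Obese-MSCs given vitamin-C, which are not compared here. Cultured cells of one fat depot stand for neither the whole tissue nor other depots.

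5-hydroxymethylcytosine (5hmC) is made from 5-methylcytosine by the TET dioxygenases, as a stable mark and as an intermediate of DNA demethylation. It is known mainly from gene bodies and enhancers, where it often accompanies transcription. In hMeDIP-seq, sheared DNA is pulled down with an antibody against 5hmC and sequenced, so the number of fragments over a gene follows how much of the mark its DNA carries. The values do not measure transcripts, and a gene named below is described by its DNA mark and not by its expression.

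The values were fractional normalized counts over the exons of each gene, the unit of every 5hmC level given below, and the whole reads behind them were recovered by inverting the authors' adjustment to a common library size. The inversion returned whole numbers for all 18933 genes within a tolerance of 0.001. The Obese libraries held 671660, 536319 and 428679 reads in genes and the Lean libraries 449019, 498119 and 483285, so that the deepest Obese library had 1.57 times the reads of the shallowest. The median gene had only 11 to 15 reads in a library. For genes with a mean of 3 to 10 normalized counts, the SD within a group was 44.6% of the mean, where counting error alone gives 40.3%, and for genes of 100 to 1000 normalized counts it was 19% against 7.67%. The spread between libraries thus exceeded counting error most where levels were high.

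The table was not symmetric at its lower end. No listed gene was without reads in all 3 Obese libraries, whereas 226 genes had no read in any Lean library. The table of treated and untreated Obese-MSCs listed 215 genes without a read in the untreated Obese libraries, and none of these was in the table used here. Of the genes with high 5hmC described below, 21 had no Lean read, and genes with reads only in Lean-MSCs were not in the table to be counted as low.

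The question behind the comparison is whether an obesogenic diet leaves a trace in the 5hmC of MSCs. Genes were counted as high or low by the study's criteria, which join an unadjusted p of 0.05 or less, from a two-sided test with equal variances, to a mean in Obese-MSCs that is 1.4 times the Lean mean or more, or 0.7 times or less. High 5hmC was met by 391 genes (2.07% of 18933) and low 5hmC by 461 (2.43%), together 852 genes (4.5%). The study itself reported more genes of each kind at these thresholds among as many genes, and the reason for the difference was not tested. Leaving out single libraries gave between 268 (without Lean 7) and 488 genes for high and between 380 and 502 for low. In limma no gene of 15146 passed a Benjamini-Hochberg adjusted p of 0.05, while 1031 (6.81%) had an unadjusted p of 0.05 or less, and limma with voom weights on the recovered reads gave 0 and 1028. The differences described below are thus differences between 3 libraries and 3 libraries that met unadjusted criteria, and none holds after adjustment over all genes. For any single gene whose groups do not overlap, the two-sided exact permutation test gives p = 0.1, the smallest value 3 libraries against 3 allow.

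**Figure D1:**
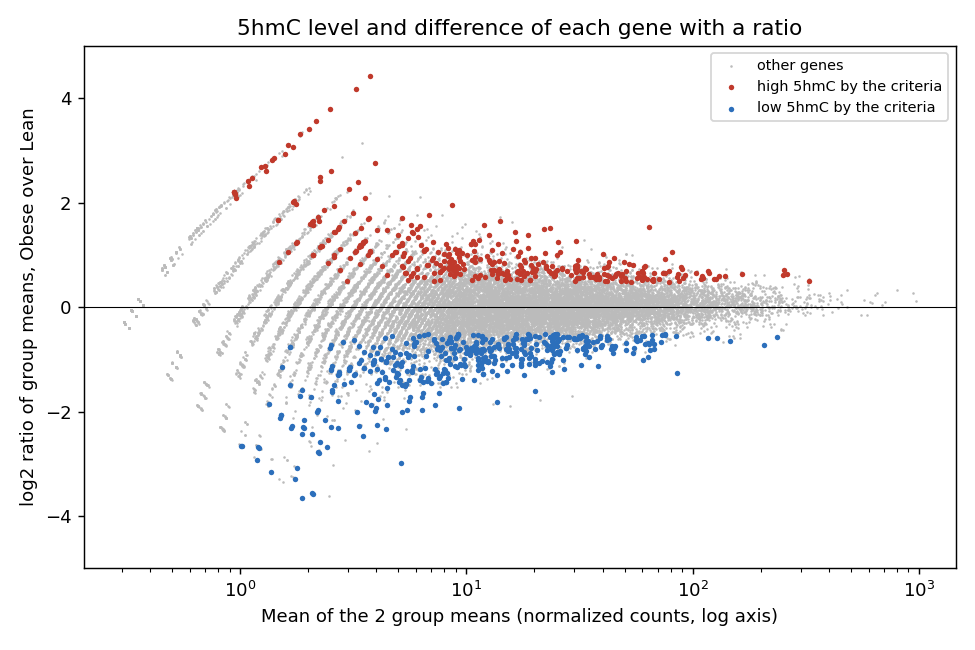
Mean 5hmC level of each gene (x axis, normalized counts, log axis) against the log2 ratio of group means, Obese over Lean (y axis), with 391 genes of high 5hmC in red and 461 of low 5hmC in blue. Ratios scatter widely at low levels and narrow to the right, and the 226 genes without a Lean read that have no finite ratio are not drawn.

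Across the genes with a ratio the log2 ratio had a median of 0.01. Of all genes 51.2% had the higher mean in Obese-MSCs, which counts the 226 genes without a Lean read as higher. In 1079 genes (5.7%) every Obese library was above every Lean library and in 1148 (6.06%) every one was below. Genes without a Lean read, such as CD14, can be among the 1079. These shares are the background against which the gene families are read. In the upper 50% of genes by mean level, 177 had high and 193 low 5hmC, and a group stayed at 3 normalized counts or less in every library for 177 of the 852 genes that met the criteria.

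Marker genes of cell types are described by their 5hmC, which cannot identify the cells. Each library had reads in all but 610 to 1145 of the 18933 genes, so that signal on a marker gene is common to most genes. The genes of the usual MSC surface proteins carried 5hmC in every library, with a summed level over CD44, ENG, ITGB1, NT5E and THY1 of 346 ± 28.4 against 319.6 ± 41.5 (SD, n = 3 each). CD44, the hyaluronan receptor, had levels of 176, 194 and 191 in Obese 1, 2 and 3 and 183, 211 and 152 in Lean 7, 8 and 9, and the groups overlapped. ENG, the TGF-beta co-receptor endoglin known as CD105, was the only one of the 5 whose groups did not overlap, with levels of 52.7, 67.4 and 52 in Obese 1, 2 and 3 and 51.7, 37.7 and 31.9 in Lean 7, 8 and 9. Its log2 ratio of 0.50 did not meet the criteria.

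DNA of genes that define other cell types was not free of signal. The leucocyte gene PTPRC had levels of 55.5, 35.9 and 49.4 in Obese 1, 2 and 3 and 47.7, 68.5 and 61.6 in Lean 7, 8 and 9, and ADIPOQ, the gene of the adipocyte hormone adiponectin, had levels of 104, 83.4 and 99.972 in Obese 1, 2 and 3 and 111, 95.3 and 82.2 in Lean 7, 8 and 9. In both genes the groups overlapped. The 6 genes of blood cells and progenitors that MSCs should lack summed to 148 ± 27 against 150.4 ± 12.5 (SD, n = 3 each), the 5 endothelial genes to 229 ± 2.4 against 226 ± 38.9 (SD, n = 3 each), the 5 macrophage genes to 133 ± 8.53 against 141 ± 6.24 (SD, n = 3 each) and the 5 adipocyte genes to 139 ± 5.63 against 137 ± 20.1 (SD, n = 3 each), and all 4 sums overlapped between the groups. Of these 21 genes CD14 alone had no read in a whole group, the Lean libraries, and its highest Obese value was 4.49.

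The summed levels of pericyte markers and of T and NK cell markers did not overlap between the groups. The 5 pericyte genes summed to 154, 177 and 131 in Obese 1, 2 and 3 and 103, 130.1 and 130.4 in Lean 7, 8 and 9, without overlap, and PDGFRB, the PDGF receptor of mural cells, contributed levels of 63.4, 64.6 and 30.1 in Obese 1, 2 and 3 and 22.8, 31.8 and 36.9 in Lean 7, 8 and 9, with overlap. CSPG4, the NG2 proteoglycan, had levels of 15.1, 34.3 and 15.6 in Obese 1, 2 and 3 and 3.54, 8.94 and 7.19 in Lean 7, 8 and 9, without overlap, but did not meet the criteria. NOTCH3, the NOTCH receptor of mural cells, lay below in every Obese library, with levels of 19.2, 22.8 and 25.7 in Obese 1, 2 and 3 and 26.1, 33.8 and 31.8 in Lean 7, 8 and 9 and a log2 ratio of -0.44, so the pericyte genes did not share a direction. The 5 T and NK cell genes summed to 52.1, 42.6 and 57.4 in Obese 1, 2 and 3 and 70.4, 90.4 and 65.8 in Lean 7, 8 and 9, and CD3E, the epsilon chain of the T-cell receptor complex, which made up 62.7% of that sum, had low 5hmC with levels of 32, 21.7 and 35.1 in Obese 1, 2 and 3 and 48.6, 52.6 and 47.3 in Lean 7, 8 and 9 and a log2 ratio of -0.74. CD3D, of the same complex, lay between 1.24 and 6.96 and overlapped, as did CD2, NKG7 and KLRB1. Without CD3E the T and NK cell sum overlapped, so its separation rests on that gene. In bulk libraries fewer cells of a type and less of the mark per cell cannot be told apart, and the part of other cell types in the differences below was not tested.

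Besides these 7 marker lists, 61 gene families had members in the table. Of the 3576 distinct named genes in all lists, 70 had high and 88 low 5hmC, which leaves out unnamed LOC models. For the 56 families of 20 members or more, LOC models included, the median log2 ratio lay between -0.27 and 0.16, so that no median was far from 0. The summed 5hmC level of a family did not overlap between the groups in 9 of the 61 families (14.8%), 5 above and 4 below. Among single genes this held for 11.8%, so the number of families that separated was close to the background, and the 9 families are a description. The log2 ratios of their sums lay between -0.18 and 0.25.

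**Figure D2:**
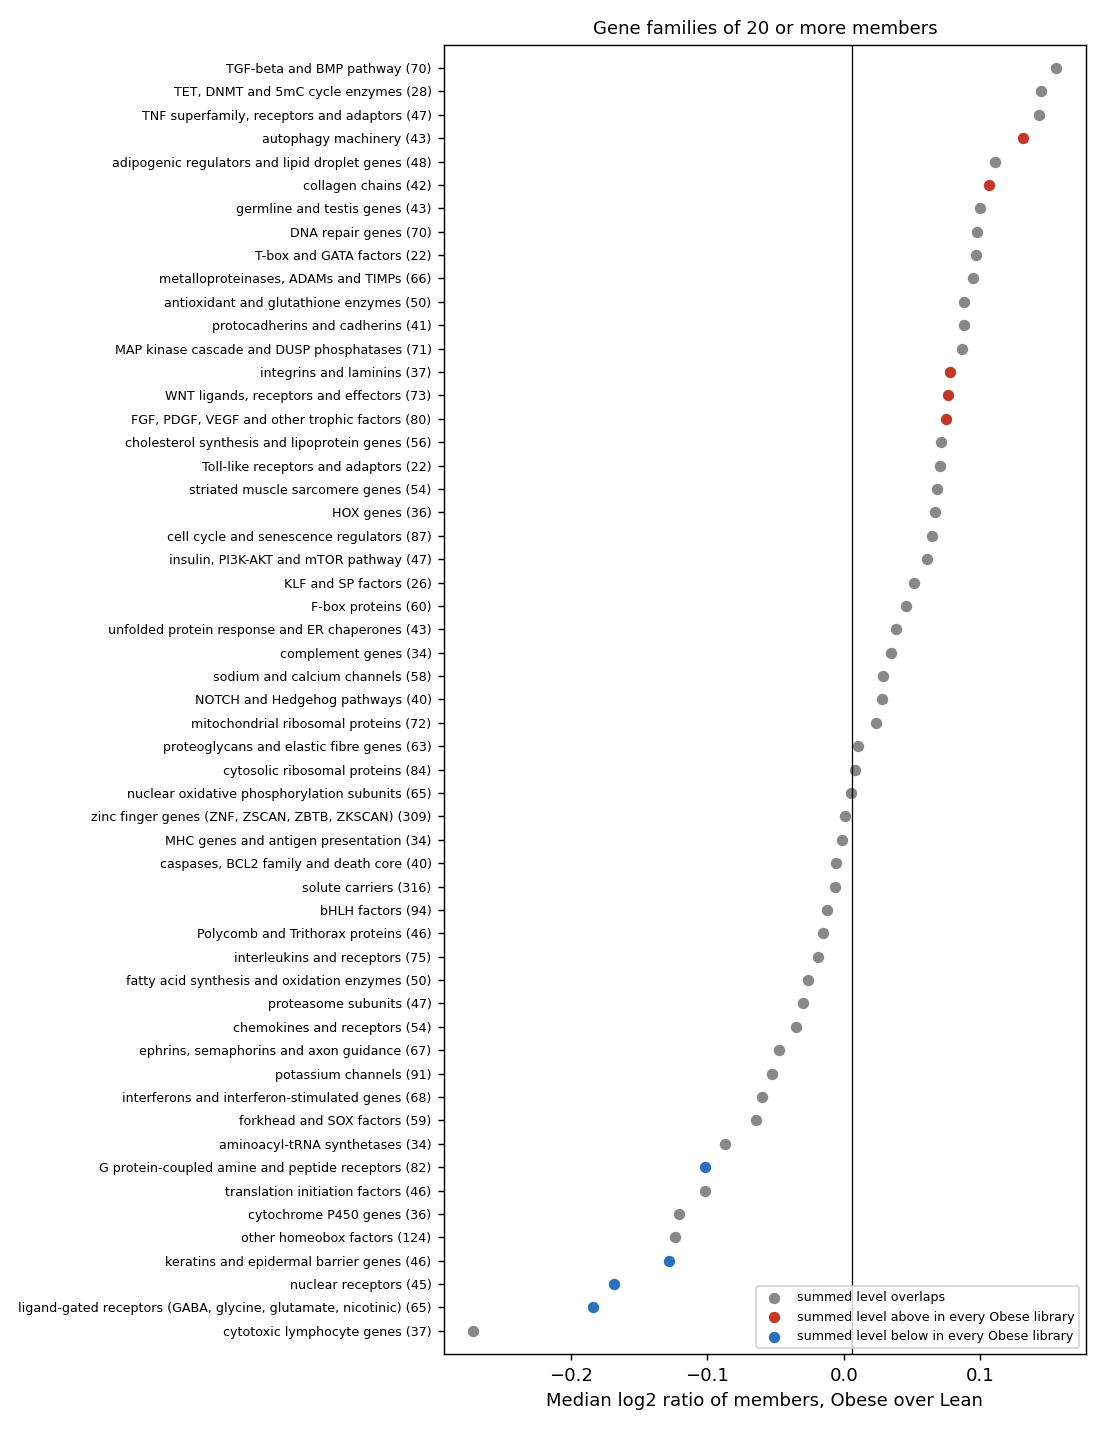
Median log2 ratio of group means, Obese over Lean (x axis), for each named gene family of 20 members or more (y axis, number of members in parentheses). The vertical line is the median of all genes, and the medians spread from -0.27 to 0.16, with collagen, trophic and autophagy genes to its right and nuclear and ligand-gated receptor genes to its left.

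**Figure D3:**
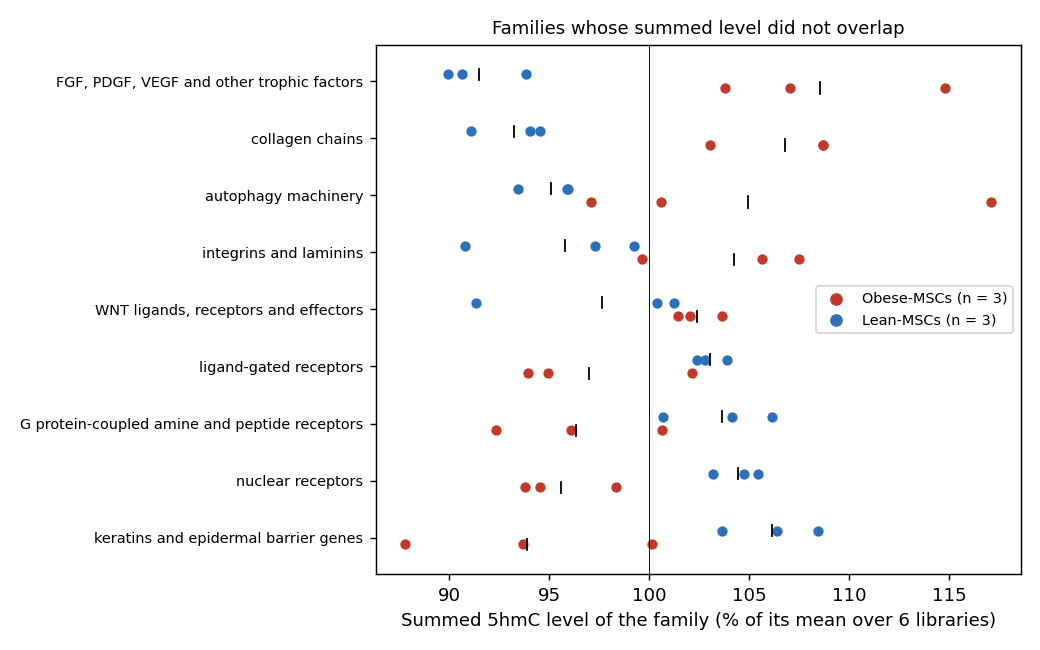
Summed 5hmC level of the 9 families that did not overlap (y axis), in each library as a percentage of the family's mean over 6 libraries (x axis), with Obese libraries in red, Lean libraries in blue and group means as bars. Collagens and trophic factors show the widest gaps above, nuclear receptors and keratins below.

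Collagen chains, the building blocks of the fibres, networks and anchoring structures of the matrix, had a higher summed 5hmC level in every Obese library than in any Lean library. The 42 collagen genes summed to 4039, 3829 and 4039 in Obese 1, 2 and 3 and 3384, 3513 and 3495 in Lean 7, 8 and 9, or 3969 ± 121 against 3464 ± 69.8 (SD, n = 3 each), a log2 ratio of 0.20. In 9 of them (21.4%, against 5.7% of all genes) every Obese library was above every Lean library, and in 2 (4.76%, against 6.06%) every one was below. COL3A1, the chain of the fibrillar type III collagen (chromosome 15 from 93556914 to 93595678 in Sscrofa11.1), met the criteria for high 5hmC, and was the only collagen to do so, with levels of 299.9, 275 and 379 in Obese 1, 2 and 3 and 182, 224 and 206 in Lean 7, 8 and 9. Its log2 ratio was 0.64, 0.49 to 0.73 with each library left out, and its limma adjusted p 0.668.

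The other collagen genes named here were chosen after their values were seen, for groups that did not overlap. COL7A1, the anchoring fibril chain of epithelial basement membranes, had levels of 302, 310.0 and 451 in Obese 1, 2 and 3 and 210.4, 253 and 241 in Lean 7, 8 and 9. For COL5A2, a chain that controls fibril width, the values were 141, 182 and 141 against 114, 116 and 109.9, and for COL16A1, a chain found at fibril surfaces, 157, 139 and 146 against 98.5, 108 and 125. All Obese libraries exceeded all Lean libraries in these 3 genes, by log2 ratios of 0.59, 0.45 and 0.41. The transmembrane collagen COL23A1 had 70.6 ± 9.18 against 52 ± 9.86 and the cartilage collagen COL27A1 64.2 ± 8.48 against 46.2 ± 9.13 (SD, n = 3 each), again without overlap. COL28A1 met the criteria for low 5hmC with levels of 10.7, 13.3 and 16.3 in Obese 1, 2 and 3 and 20.5, 23.8 and 29.7 in Lean 7, 8 and 9, a log2 ratio of -0.88. COL12A1, which has the most normalized counts of the collagens without a correction for length, overlapped with 841, 608 and 631 against 586, 518 and 669, and without it the family still did not overlap, at a log2 ratio of 0.19.

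Several genes of adhesive glycoproteins of the matrix were also higher in every Obese library. FN1, the fibronectin gene (chromosome 15 from 117658158 to 117737145), had levels of 1156, 941 and 998 in Obese 1, 2 and 3 and 805, 869.8 and 908 in Lean 7, 8 and 9, and no gene but ZBTB20 had a larger mean count in the table, again without a correction for length. Its log2 ratio of 0.26 lay between 0.17 and 0.32 with a library left out and was below the ratio threshold. SPARC, the collagen-binding osteonectin, had 122.9, 119 and 113 against 90.5, 104 and 90.4, and the tenascin TNXB had 78.5, 84.4 and 75.4 against 57.8, 71.5 and 58.6. FBLN1, a fibulin of elastic fibres, had 38.7, 36.9 and 48 against 28.3, 36.7 and 23.7. All 3 were without overlap, at log2 ratios of 0.32, 0.34 and 0.48, and none met the criteria. The tenascin of nervous tissue, TNR, differed the other way, with 52.2, 52.2 and 44.9 against 77.8, 56.6 and 72.9.

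Among the 63 proteoglycan and elastic fibre genes 1 gene had high and 1 low 5hmC, which is 1.59% each, against 2.07% and 2.43% of all genes. OMD, osteomodulin, a small keratan sulphate proteoglycan of bone, was high with levels of 38.8, 42.7 and 40.046 in Obese 1, 2 and 3 and 18.3, 25.8 and 31.8 in Lean 7, 8 and 9, a log2 ratio of 0.68. Its annotation overlaps that of CENPP. GPC2, a glypican of developing neurons, was low with levels of 21.6, 25.6 and 25.8 in Obese 1, 2 and 3 and 36.4, 54.6 and 39.1 in Lean 7, 8 and 9, a log2 ratio of -0.83. The summed level of the family, 4338 ± 235 against 4076 ± 241 (SD, n = 3 each), overlapped between the groups.

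Receptors and networks that cells attach to gave no gene that met the criteria, among few genes and against 4.5% of all genes. Of the 37 integrin and laminin genes 6 (16.2%, against 5.7% of all genes) were above and 3 (8.11%, against 6.06%) below without overlap. LAMB1, the laminin beta 1 chain, had levels of 389, 411 and 381 in Obese 1, 2 and 3 and 338, 335 and 335 in Lean 7, 8 and 9, and ITGA8, the integrin alpha 8 subunit, had 206, 243 and 268 against 192, 178 and 184. The epithelial integrin subunit ITGB6 was lower, with 101, 109 and 104 against 157, 129 and 123.3. The sum of the family did not overlap, at 2960.1 ± 117 against 2719.6 ± 125 (SD, n = 3 each), but it overlapped without LAMB1.

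Enzymes that cut and remodel the matrix had 0 genes of high and 2 (3.03%) of low 5hmC among 66, against 2.07% and 2.43% of all genes. The low genes were MMP27, with 6.58 ± 0.789 against 10.1 ± 1.66, and ADAMTSL5, with 20.7 ± 2.67 against 29.6 ± 3.64 (SD, n = 3 each). ADAMTS7, a protease of cartilage oligomeric matrix protein, had levels of 379, 344 and 295 in Obese 1, 2 and 3 and 172, 217 and 288 in Lean 7, 8 and 9, a log2 ratio of 0.59. ADAM19 had 79.7, 119.6 and 84.9 against 61.1, 69.5 and 53.4, and ADAM12, a protease of mesenchymal and muscle precursors, 541, 470.3 and 454 against 385, 438 and 426. In these 3 genes, in ADAMTS6 and in ADAMTS17 every Obese library was above every Lean library, while the sum of the family overlapped. They make up 7.58% of the family, against 5.7% of all genes.

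Secreted trophic factors and their receptors, the basis of the paracrine action of MSCs on vessels and injured tissue, had the widest gap of the 9 families. The 80 genes summed to 3672, 3320.0 and 3423 in Obese 1, 2 and 3 and 2898, 2877 and 3002 in Lean 7, 8 and 9, a log2 ratio of 0.25. By the criteria 4 were high and 4 low, which is 5% each, against 2.07% and 2.43% of all genes. The sum stayed without overlap when FLT1, the VEGF receptor 1 gene with the largest count of the family, was removed (log2 ratio 0.21). FLT1 itself overlapped, with levels of 389, 219 and 348 in Obese 1, 2 and 3 and 159.8, 194 and 262 in Lean 7, 8 and 9.

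Of the ligands, ANGPT2, the angiopoietin that destabilizes vessels (chromosome 15 from 37544177 to 37600925), had levels of 301, 267 and 379 in Obese 1, 2 and 3 and 183, 203 and 189 in Lean 7, 8 and 9. The highest Lean library lay well below the lowest Obese library, at a log2 ratio of 0.72 (0.57 to 0.83 with a library left out) and a limma adjusted p of 0.583. The annotation of ANGPT2 overlaps that of MCPH1. CSF1, the macrophage colony-stimulating factor, had levels of 12.8, 22.8 and 22.2 in Obese 1, 2 and 3 and 9.02, 9.93 and 6.19 in Lean 7, 8 and 9, with a log2 ratio of 1.20. HGF, the hepatocyte growth factor, had levels of 51.2, 51.2 and 55.2 in Obese 1, 2 and 3 and 32.9, 27.8 and 46.2 in Lean 7, 8 and 9, and the neurotrophin NTF3 13.8, 14.2 and 20.9 against 6.86, 10.9 and 7.2.

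These 4 ligand genes met the criteria for high 5hmC. The cytokine LIF had 238, 274 and 171 against 112, 169 and 166, the neurotrophic factor GDNF 239, 253 and 272 against 218, 221 and 223 and NRP1, the co-receptor of VEGF, 189.8, 180.1 and 181 against 162, 146 and 156. Each of the 3 was higher in every Obese library without meeting the criteria, and in LIF the groups nearly touched. The low genes of the family were mostly receptors. TEK, the receptor of the angiopoietins, had levels of 23.1, 31.4 and 24.8 in Obese 1, 2 and 3 and 42.9, 37.7 and 43.1 in Lean 7, 8 and 9, a log2 ratio of -0.64, and so differed in the direction opposite to its ligand gene ANGPT2. GFRA2, a co-receptor for neurturin, had 15.7, 13.3 and 11.9 against 23.7, 19.9 and 22.6, and NTRK2, the receptor of brain-derived neurotrophic factor, 18.2, 28.5 and 29.2 against 39.5, 36.7 and 36. FGF17 was the low ligand, at only 2.51 ± 0.299 against 4.2 ± 0.283 normalized counts (SD, n = 3 each).

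**Figure D4:**
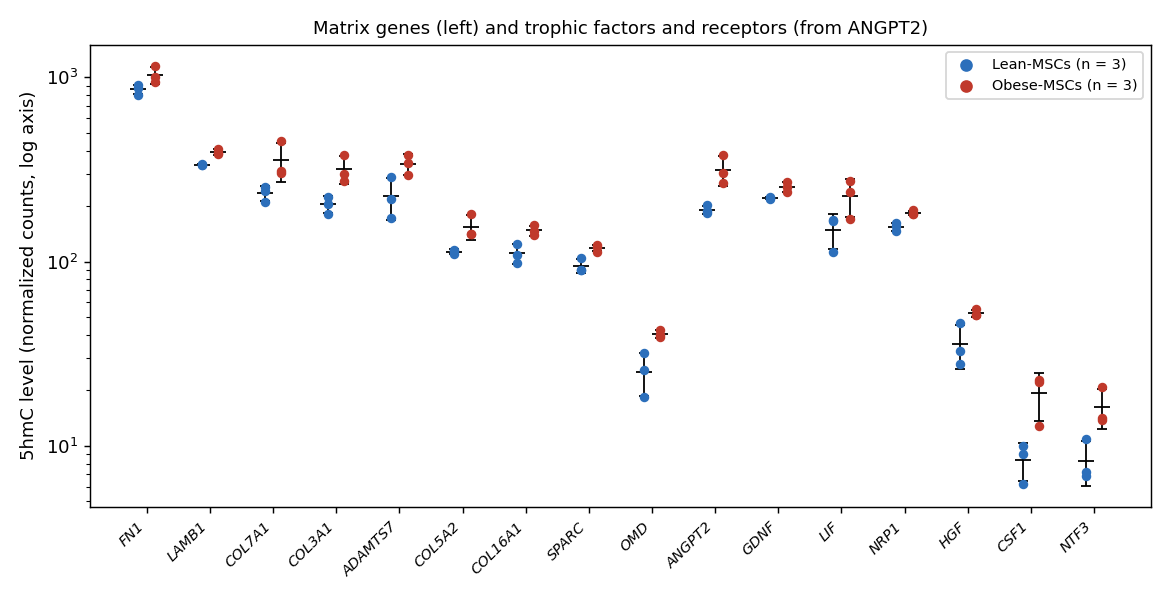
5hmC level (y axis, normalized counts, log axis) of matrix genes and of trophic factor and receptor genes (x axis) in 3 Lean libraries (blue) and 3 Obese libraries (red), with the mean ± SD as black bars. No gene shown has overlapping groups, and the genes were chosen for this after their values were seen.

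Pathways of growth and patterning had genes of both directions. In the WNT pathway 2 of 73 genes (2.74%) were high and 1 (1.37%) low, against 2.07% and 2.43% of all genes. WNT10B, a ligand that restrains adipogenesis, was high with levels of 32, 29.4 and 27.2 in Obese 1, 2 and 3 and 17.1, 22.8 and 18.5 in Lean 7, 8 and 9, and WNT7B was high at 6.57 ± 0.902 against 2.37 ± 2.05 (SD, n = 3 each). DVL3, a cytoplasmic transducer of the receptor signal, was low with levels of 32.4, 32.2 and 45.6 in Obese 1, 2 and 3 and 75.5, 62.5 and 57.5 in Lean 7, 8 and 9, a log2 ratio of -0.83. RYK, a WNT co-receptor, had 42.7, 32.1 and 53.8 against 23.9, 28.8 and 28.7, above without overlap. The sum of the family did not overlap, but the highest Lean library, at 2660.0, lay close to the lowest Obese library, at 2665, and the sums overlapped without WNT5A.

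The TGF-beta and BMP pathway had 2 high (2.86%) and 0 low genes among 70, against 2.07% and 2.43% of all genes. Of its members 44 had a higher group mean in Obese-MSCs and 26 a lower one. SMURF1, a ubiquitin ligase that marks BMP SMADs for degradation, had levels of 73.7, 70.1 and 86.9 in Obese 1, 2 and 3 and 51.8, 34.7 and 49.3 in Lean 7, 8 and 9, a log2 ratio of 0.76. FST, the activin antagonist follistatin, had levels of 16.4, 15.2 and 11.9 in Obese 1, 2 and 3 and 8, 10.9 and 10.3 in Lean 7, 8 and 9. Groups did not overlap in either gene. The median log2 ratio of the family, 0.16, was the highest of the larger families, and its sum overlapped.

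Hedgehog genes were divided. SMO, the signal-transducing receptor, had levels of 13.9, 18.1 and 14.2 in Obese 1, 2 and 3 and 21.5, 23.8 and 20.6 in Lean 7, 8 and 9 and GLI1, a transcription factor that is itself a target of the pathway, levels of 29.3, 35.1 and 37.5 in Obese 1, 2 and 3 and 54.3, 64.5 and 52.4 in Lean 7, 8 and 9. Both met the criteria for low 5hmC, at log2 ratios of -0.51 and -0.75. GLI2, the main activator, met those for high 5hmC with 17.9, 15.1 and 21 against 9.17, 12.9 and 13.3. In the NOTCH pathway HEYL, a target gene, was low with 11.2, 4.68 and 7.12 against 18, 12.9 and 16.4, while the receptor NOTCH2 was above in every library with 205, 176 and 211 against 175, 155 and 160.2.

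MAP kinase genes had 3 high (4.23%) and 1 low (1.41%) members among 71, against 2.07% and 2.43% of all genes. MAP2K3, the kinase that activates p38, had levels of 38.9, 40.8 and 33.1 in Obese 1, 2 and 3 and 15, 30.8 and 22.6 in Lean 7, 8 and 9, and MAP3K4, further up in the same cascade, 72.3, 63.5 and 82.2 against 40.9, 61.6 and 44.2. Both were high. DUSP28, a phosphatase gene, was high with 12.3, 19.1 and 9.65 against 4.48, 0.986 and 5.12, the log2 ratio of 1.95 resting on few reads. BRAF, a kinase of the ERK cascade, was below in every Obese library with 134, 126 and 107 against 226, 168 and 157, without meeting the criteria. In the insulin and mTOR pathway the docking protein gene IRS1 had levels of 189.9, 129 and 209 in Obese 1, 2 and 3 and 112, 86.4 and 120.1 in Lean 7, 8 and 9, a log2 ratio of 0.73 that missed the p-value criterion. GYS1, glycogen synthase, was above with 124, 119 and 117 against 101, 107 and 87.3 and the adaptor SHC1 below with 85.7, 75.8 and 75.4 against 93.9, 108 and 97.6.

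Among 124 homeobox genes outside the HOX clusters 0 had high and 8 (6.45%) low 5hmC, against backgrounds of 2.07% and 2.43%. Most were genes of few counts. SIX2, a factor of nephron and facial mesenchyme, had levels of 2.46, 0.937 and 0.0469 in Obese 1, 2 and 3 and 10.1, 9.93 and 7.21 in Lean 7, 8 and 9, which in the Obese libraries were 3, 1 and 0 reads. Its log2 ratio of -2.99 was -4.21 without Obese 1 and -2.42 without Obese 3. DLX4 had 7.81, 6.62 and 7.08 against 12.5, 12.9 and 14.4 and the pancreatic factor PAX4 3.02, 6.71 and 1.33 against 10.2, 12.9 and 11.3. PAX3, a factor of muscle and neural crest precursors, had 6.84, 9.5 and 9.37 against 11.5, 16.9 and 16.4, and GSC2 27.2, 20.8 and 32.7 against 39.6, 39.7 and 47.2. NKX6-3 and NKX2-2 were at 0.642 ± 0.587 against 3.85 ± 1.55 and 6.21 ± 1.4 against 9.42 ± 0.731 (SD, n = 3 each), and PAX7 completed the 8. None of the 8, which the criteria had selected, had overlapping groups. The sum over the family, 2211 ± 22.6 against 2290.3 ± 85 (SD, n = 3 each), overlapped. Without ZFHX4, its gene of most counts, the sum was below in every Obese library, at 1991 to 2039 against 2048 to 2195.

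The 36 HOX genes, which record the body position of mesenchymal cells, had 2 high (5.56%) and 0 low members, against 2.07% and 2.43% of all genes. HOXA11, a gene of the forearm and uterus, had levels of 32.4, 18.9 and 19.1 in Obese 1, 2 and 3 and 9.09, 10.9 and 9.25 in Lean 7, 8 and 9, a log2 ratio of 1.27. HOXD10 had 37.3, 40.8 and 32 against 26, 21.8 and 26.7. The difference between HOX and other homeobox genes was not tested.

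Of 94 factors with a helix-loop-helix fold 2 (2.13%) were high and 6 (6.38%) low, against 2.07% and 2.43% of all genes. The family was otherwise balanced, with 45 members higher and 46 lower by group mean. Without overlap 6 were above and 6 below, which is 6.38% each, against 5.7% and 6.06% of all genes. The myogenic factor MYF5 had 2.22, 2.83 and 4.61 against 8.95, 6.95 and 5.16, the neuronal factor NHLH2 2.11, 5.71 and 5.8 against 9.04, 7.94 and 9.24 and the oocyte factor FIGLA 0.707, 0.937 and 2.28 against 5.64, 5.96 and 4.12. TWIST1, a mesenchymal factor, was high at 6.34, 4.73 and 3.64 against 1.19, 1.98 and 3.07. None of these 4 genes reached a group mean of 10 normalized counts. FOXF2, a forkhead factor of mesenchyme around the gut, was high with 5.4, 5.69 and 5.88 against 1.17, 2.98 and 1.04, FOXK2 was high with 44.4, 43.6 and 37.8 against 23.9, 24.8 and 35.9, and SOX7, an endothelial factor, was low with 6.16, 6.63 and 7.05 against 11.3, 10.9 and 9.26. SOX6, a chondrocyte factor with more counts, was below in every Obese library with 129, 92.8 and 130.4 against 139, 195 and 181.

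Nuclear receptors, transcription factors that bind hormones and lipids, had a lower summed 5hmC level in every Obese library. The 45 genes summed to 1797, 1714 and 1727 in Obese 1, 2 and 3 and 1926, 1913 and 1885 in Lean 7, 8 and 9, and 32 of them had the lower group mean in Obese-MSCs. THRB, the thyroid hormone receptor beta (chromosome 13 from 10900716 to 11360587), was low with levels of 220.4, 215 and 132 in Obese 1, 2 and 3 and 307, 275 and 267 in Lean 7, 8 and 9. The values of Obese 1 and Obese 2 lay near each other and that of Obese 3 well below, and the log2 ratio of -0.58 ranged over -0.70 to -0.38 with a library left out. NR2E3, a photoreceptor factor, was low with 14.7, 16.1 and 15.3 against 21.5, 26.8 and 18.5. NR6A1, the germ cell nuclear factor, was below without overlap with 74.7, 78.8 and 58 against 112, 102 and 85.3. RARA, the retinoic acid receptor alpha, went the other way and was high with 21.7, 22.8 and 21.2 against 11.4, 17.9 and 9.28. Without THRB the family still did not overlap, at a log2 ratio of -0.06.

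Ligand-gated receptors of excitable cells, which MSCs are not known for, had a lower sum in every Obese library as well. The 65 genes of GABA, glycine, glutamate and nicotinic receptors had a median log2 ratio of -0.18 and summed to 1626 ± 75.4 against 1727 ± 12.9 (SD, n = 3 each), with no overlap, although Obese 3, at 1713, lay close to the lowest Lean library, at 1717. By the criteria 1 was high (1.54%) and 3 were low (4.62%), against 2.07% and 2.43% of all genes. The low genes were the nicotinic subunit CHRNA6, with levels of 11.6, 7.51 and 17.3 in Obese 1, 2 and 3 and 26, 27.8 and 23.6 in Lean 7, 8 and 9, the GABA receptor subunit GABRB2, with 13.1, 17.1 and 14.2 against 21.7, 38.7 and 30.8, and the glycine receptor subunit GLRA2, with 13.7, 19.9 and 19.9 against 29.4, 30.8 and 30.8. GRIN3B, a glutamate receptor subunit, was the high one at 7.16 ± 1.3 against 3.88 ± 1.46 (SD, n = 3 each).

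Amine and peptide receptors that signal through G proteins had 1 high (1.22%) and 5 low (6.1%) genes among 82, against 2.07% and 2.43% of all genes. Of them 11 (13.4%, against 6.06%) were below without overlap and 8 (9.76%, against 5.7%) above. The sum of the family was lower in every Obese library, but Obese 2, at 1688.5, nearly touched Lean 9, at 1689.6. Without CHRM3 the sums overlapped. HRH2, the histamine H2 receptor (chromosome 2 from 81883670 to 81932464), had levels of 16, 21.8 and 23.4 in Obese 1, 2 and 3 and 47.4, 46.7 and 38 in Lean 7, 8 and 9. Its log2 ratio was -1.11, -1.22 to -0.96 with a library left out, and its limma adjusted p 0.583. The vasopressin receptor AVPR1B had 33.8, 23.7 and 23.7 against 40.9, 50.6 and 49.3 and the serotonin receptor HTR1A 4.54, 7.63 and 4.78 against 10.2, 11.9 and 11.3, and both were low. DRD1, the dopamine D1 receptor, was above in every Obese library with 97.2, 54.9 and 63.8 against 24.1, 34.7 and 49.2, at a log2 ratio of 1.00 that missed the p-value criterion.

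Of 91 potassium channel genes 2 (2.2%) were low and 0 high, against 2.43% and 2.07% of all genes. KCND1, a voltage-gated channel of the A type on the X chromosome, had levels of 46, 45.5 and 39 in Obese 1, 2 and 3 and 70.3, 93.3 and 88.3 in Lean 7, 8 and 9, and its log2 ratio was -0.95 and its limma adjusted p 0.583. KCNA10 was low at 1.665 ± 1.5 against 4.52 ± 0.922 (SD, n = 3 each). KCNJ6, an inward rectifier, was below without overlap with 65.1, 63.5 and 85.6 against 92.7, 96.3 and 92.4. The summed levels of potassium channels and of sodium and calcium channels overlapped between the groups. Sodium and calcium channels had both directions, with 3 high (5.17%) and 2 low (3.45%) of 58. CACNA1E, the pore of R-type calcium channels, was low with levels of 17.2, 15.2 and 14.2 in Obese 1, 2 and 3 and 30.6, 39.7 and 25.7 in Lean 7, 8 and 9, while CACNB3, an accessory subunit, was high with 27.4, 24.7 and 17.9 against 11.3, 7.93 and 14.3 and the cold receptor TRPM8 high with 143, 131 and 114 against 77.1, 88.4 and 103.

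**Figure D5:**
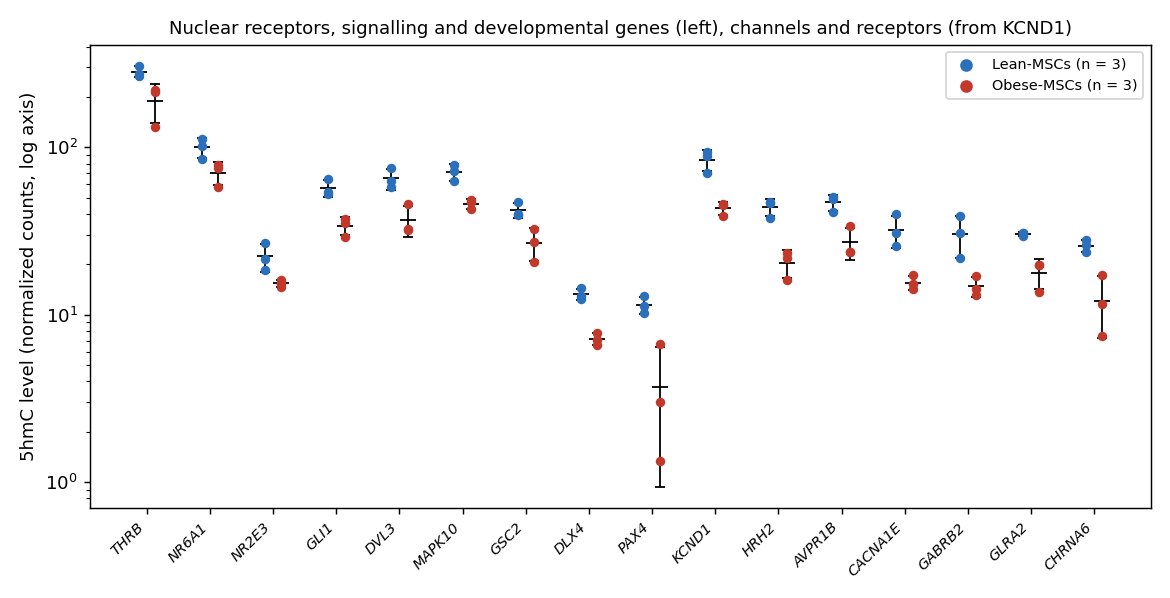
5hmC level (y axis, normalized counts, log axis) of nuclear receptor, signalling, developmental, channel and receptor genes (x axis) in 3 Lean libraries (blue) and 3 Obese libraries (red), with the mean ± SD as black bars. Every gene shown was lower in all Obese libraries and was chosen for this, and PAX4 shows the widest spread among Obese libraries, from 1.33 to 6.71.

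Enzymes that write, read and erase DNA methylation showed small differences. Of 28 genes of the TET, DNMT and repair enzymes of the 5-methylcytosine cycle 1 (3.57%) was high and 0 low, against 2.07% and 2.43% of all genes. Without overlap 4 (14.3%, against 5.7%) were above and 0 below. Their sum overlapped, but without ZBTB38, the gene of most counts, it was above in every Obese library, at 710.3 to 761 against 620 to 709.6. DNMT3L, the catalytically inactive partner of the de novo methyltransferases, was high with levels of 88.5, 94.8 and 88.3 in Obese 1, 2 and 3 and 37.7, 64.5 and 69.8 in Lean 7, 8 and 9, a log2 ratio of 0.66. DNMT3A, one of the methyltransferases it assists, was above without overlap with 60.7, 55.9 and 55.4 against 50.9, 48.6 and 50.3, a log2 ratio of only 0.20. Among histone deacetylases HDAC5, a repressor of muscle and vascular genes, was high with levels of 43.6, 46.5 and 32.1 in Obese 1, 2 and 3 and 25.9, 19.9 and 19.5 in Lean 7, 8 and 9. In the Polycomb group the gene of most counts, JARID2, overlapped with 800.2, 706 and 698 against 708, 701 and 659. Lysine demethylases had KDM7A low with 19.4, 15.1 and 24.5 against 26.1, 27.8 and 31.8, KDM5B below without overlap with 86.7, 61.5 and 73 against 92.8, 89.3 and 122 and KDM2A above without overlap with 66.9, 63.5 and 67.1 against 54.2, 55.6 and 44.2.

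Genes of lipid and energy metabolism, the processes the diets load, were near the background of 2.07% high and 2.43% low. Of adipogenic and lipid droplet genes 2.08% were high and 0% low, of fatty acid enzymes 2% each, and of cholesterol and lipoprotein genes 1.79% and 0%. Of 48 adipogenic and lipid droplet genes SREBF1 alone met the criteria, the gene of the regulator of lipogenesis SREBP-1, which was high with levels of 16.3, 17.1 and 14.2 in Obese 1, 2 and 3 and 9.09, 9.93 and 10.3 in Lean 7, 8 and 9. Of 50 fatty acid enzymes ELOVL3, an elongase of brown fat and skin, was low with levels of 10.9, 9.45 and 12.8 in Obese 1, 2 and 3 and 25.9, 20.8 and 24.6 in Lean 7, 8 and 9, a log2 ratio of -1.11, and ACOX3, a peroxisomal oxidase, was high with 29.8, 25.6 and 20.2 against 13.6, 17.9 and 14.4. In cholesterol metabolism DHCR7, the last enzyme of synthesis, was high at 7.25 ± 0.826 against 4.88 ± 0.3 and NPC1, the lysosomal cholesterol exporter, was below without overlap at 46.5 ± 7.6 against 65.3 ± 9.9 (SD, n = 3 each).

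Among 50 antioxidant and glutathione genes 1 (2%) was high and 2 (4%) were low, against 2.07% and 2.43% of all genes. GSS, glutathione synthetase, was low with levels of 5.4, 6.66 and 4.78 in Obese 1, 2 and 3 and 14.6, 10.9 and 11.3 in Lean 7, 8 and 9, and the thioredoxin reductase TXNRD3 was low with 3.61, 9.54 and 7.05 against 11.3, 11.9 and 12.3. NFE2L2, the gene of the oxidative stress regulator NRF2, overlapped with 146, 180.2 and 203 against 151, 172 and 117. The 65 nuclear genes of the respiratory chain summed to 549 ± 37.7 against 558 ± 71.6 (SD, n = 3 each), with NDUFS3, a complex I subunit, low at 2.9 ± 1.31 against 6.99 ± 1.59 (SD, n = 3 each) and NDUFB7 high, which had no Lean read. Of 316 solute carriers 3 (0.949%) were high and 7 (2.22%) low.

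Immune genes differed singly and not as families. The summed level overlapped in each of the 8 immune families. None of 22 Toll-like receptor and 34 MHC family genes met the criteria, lists too short to be set apart from the 4.5% of all genes that did. C1R, a protease that starts the classical complement pathway (chromosome 5 from 63644097 to 63655149), was high with levels of 133, 124 and 139 in Obese 1, 2 and 3 and 87.1, 90.4 and 86.3 in Lean 7, 8 and 9. Its groups were narrow and apart, at a log2 ratio of 0.59 (0.55 to 0.63 with a library left out), and its limma adjusted p was 0.668. C3, the central complement protein, had 44.4, 31.2 and 50.3 against 62, 51.6 and 50.3, with its groups touching.

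Low 5hmC was met by IL23R, the receptor chain for interleukin 23, with levels of 22.7, 18 and 20.035 in Obese 1, 2 and 3 and 30.5, 36.7 and 25.7 in Lean 7, 8 and 9, and by TNFSF9, the ligand of 4-1BB, with 5.51, 4.74 and 3.62 against 9.14, 10.9 and 13.3. ACKR1, a scavenging receptor of chemokines, was low with 3.81, 5.72 and 3.6 against 12.4, 10.9 and 9.26. TNFRSF17, the B-cell maturation antigen, was high with 7.63, 7.55 and 12.7 against 4.46, 1.98 and 3.08, and the chemokines CXCL10 and CCL24 were high at 5.06 ± 0.68 against 2.42 ± 1.49 and 4.7 ± 0.0521 against 2.07 ± 0.897 (SD, n = 3 each). IFI44 and IFI44L, interferon-induced genes that neighbour each other on chromosome 6, differed in opposite directions. IFI44 had 7.85, 4.69 and 8.17 against 0.0301, 1.99 and 1.03 and IFI44L 4.68, 3.78 and 4.7 against 6.82, 8.94 and 6.18, so that both rest on fewer than 10 normalized counts. IL17B was above without overlap with 113, 121 and 107 against 74.8, 89.4 and 91.4, and CCL22 was below with 25.4, 32.3 and 32.8 against 39.6, 44.7 and 39. The 37 cytotoxic lymphocyte genes had the lowest median of the larger families, -0.27, with 1 low gene (2.7%, against 2.43% of all genes), HCST, at 12.3, 13.3 and 15.2 against 17.1, 18.9 and 22.6, beside the lower CD3E given above.

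Genes of cell fate and upkeep held a few differences. Autophagy genes summed to 1538, 1275 and 1321 in Obese 1, 2 and 3 and 1227, 1260.0 and 1260.4 in Lean 7, 8 and 9, without overlap, and Obese 1 stood above the other Obese libraries. ATG7, the enzyme that activates ubiquitin-like proteins for autophagosome growth, had levels of 229, 213 and 234 in Obese 1, 2 and 3 and 161, 179.7 and 173 in Lean 7, 8 and 9, a log2 ratio of 0.40 below the ratio threshold. Of 87 cell cycle and senescence genes 2 (2.3%) had high and 1 (1.15%) low 5hmC, against 2.07% and 2.43% of all genes. Both directions occurred without overlap, with 7 genes (8.05%, against 5.7%) above and 6 (6.9%, against 6.06%) below. CCND1, cyclin D1, was above without overlap with 53.8, 34 and 62 against 29.3, 28.8 and 24.7, and CDC20, an activator of the anaphase-promoting complex, with 79.2, 104 and 58.2 against 41.9, 50.6 and 46.2, neither meeting the criteria. The replication licensing factor CDT1 was high at 3.18 ± 0.841 against 1.02 ± 0.979 (SD, n = 3 each).

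Cell adhesion and guidance genes were spread over both directions. CDH11, the cadherin of mesenchymal cells and osteoblasts, was high with levels of 62, 71.1 and 68.2 in Obese 1, 2 and 3 and 53, 45.7 and 39.1 in Lean 7, 8 and 9, a log2 ratio of 0.55. PCDH9 was high with 35.8, 34.1 and 36.5 against 22.7, 28.8 and 23.6 and PCDH18 low with 48.3, 52.2 and 34.5 against 76.7, 62.5 and 61.6. EPHA2, an ephrin receptor, was high with 39.7, 40.8 and 35.4 against 17.2, 29.8 and 21.6 and UNC5B, a netrin receptor of vessels, low with 13.2, 13.3 and 14.1 against 24.8, 24.8 and 17.5. EPHA1 was above in every Obese library with 222, 250.4 and 200.3 against 168, 161 and 170.5, a narrow Lean range.

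Among keratin and sarcomere genes, which are restricted to other tissues, most of those that met the criteria were low. By group mean, 19 keratin genes were higher in Obese-MSCs and 27 lower, and 32 sarcomere genes were higher and 21 lower. The 46 keratin and epidermal genes summed to 449, 394 and 421 in Obese 1, 2 and 3 and 465, 478 and 487 in Lean 7, 8 and 9, no library overlapping. Of them 4 (8.7%) were low and 1 (2.17%) high, against 2.43% and 2.07% of all genes. CDSN, the corneodesmosome protein of skin, was low with levels of 23.6, 17 and 18.9 in Obese 1, 2 and 3 and 30.5, 35.8 and 26.7 in Lean 7, 8 and 9, and KRT8, a keratin of simple epithelia, was high at 3.18 ± 0.841 against 1.42 ± 0.699 (SD, n = 3 each). Without CASP14 the keratin sum overlapped. Of 54 sarcomere genes 2 (3.7%, against 2.43% of all genes) were low, MYL3 with 2.26, 2.84 and 3.49 against 4.68, 9.93 and 9.23 and MYH7, and the titin gene TTN overlapped with 206, 241 and 244 against 238, 249 and 197.

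Housekeeping families held few genes that met the criteria. The 84 cytosolic ribosomal protein genes had 1 high (1.19%) and 4 low (4.76%) members, against 2.07% and 2.43% of all genes. The group means of these 5 genes were 12.5 normalized counts or less. RPL13 had 3.12, 3.81 and 1.29 against 7.91, 8.94 and 6.18 and RPS12 2.29, 3.82 and 1.27 against 5.71, 7.95 and 6.17, and since these genes have processed copies elsewhere in the genome their reads are uncertain. None of 47 proteasome, 34 aminoacyl-tRNA synthetase and 6 histone genes met the criteria. These lists are too short to be set apart from the 4.5% of all genes that did.

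By the smallest spread relative to the difference, 5 genes led among those of the upper 50% that met the criteria, C1R being one of them. RAB3GAP1, a regulator of vesicle traffic (chromosome 15 from 16756368 to 16893148), had levels of 13.2, 12.3 and 13 in Obese 1, 2 and 3 and 26.1, 30.8 and 25.7 in Lean 7, 8 and 9, a log2 ratio of -1.10. PAPOLA, a poly(A) polymerase, had 22.5, 23.7 and 22.4 against 33.9, 32.8 and 34.9 and NGRN, a mitochondrial RNA-binding protein gene, 11.6, 11.4 and 11.8 against 18.1, 17.9 and 20.5, both low. DDX49, an RNA helicase gene, was high with 42.6, 47.4 and 45.9 against 30.5, 29.8 and 31.8. Their limma adjusted p-values lay between 0.668 and 0.73.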

How the data were processed

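The members and gene families described here were chosen with earlier results of these data known. Libraries were assigned from the submitters' labels. The deposited values are a normalized signal per gene: the authors aligned paired reads with Bowtie2 2.3.3.1 to susScr 11.1, removed duplicates with Picard, counted reads over exons with HTSeq 0.9.1 and normalized them with edgeR 3.28.1. No input library enters these values.

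The deposited signal was reproduced as whole reads passed through a quantile adjustment to a common library size, with 3 relative library sizes per group and 1 common dispersion of 0.0352. The table of treated and untreated Obese-MSCs served only to check this, and the untreated Obese reads recovered from both tables were the same for all 18752 shared genes. No count model was fitted to the recovered reads. Differences in total 5hmC between groups are not visible after normalization.

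The criteria were computed with scipy 1.17.1 on the deposited values. On log2(value + 1), limma 3.58.1 (R 4.3.3) was run with a mean-dependent prior over the upper 80% of genes by mean. A fold change in the text is a log2 ratio of group means without a pseudocount. Both procedures were tested on simulated data. Up to 6 genes per family were named by the size of the ratio among those that met the criteria with a group mean above 3, with the gene of the largest mean, the highest and lowest ratios where fewer than 2 met the criteria, the marker genes and 5 genes of small spread. Genes described as above or below without overlap, and ATG7, GSC2, HGF, NKX2-2, NTRK2, TRPM8 and UNC5B, were chosen after their values were seen. Values of some genes the rule picked are not reported here. Gene positions are RefSeq's for Sscrofa11.1, matched by symbol for all 18933 genes. Reads in a gene that overlaps another cannot be assigned with certainty, which applies to 119 of the 328 genes the rule or the later choice picked. Alternatives were other tests, thresholds, filters, pseudocounts, scalings and each library left out, and, chosen after seeing the data, analyses of the recovered reads.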

Additional observations from a re-analysis of the deposited data

How the results depend on the processing

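Counts by the study's criteria moved with the threshold and the filter, to 86 high and 130 low at a p of 0.01, and to 177 high and 193 low in the upper 50% by mean. The count stayed within 1.5 times under the log2 scale, unequal variances (270 and 345), a ratio of 1.5, the upper 80%, size factors, quantile normalization and the unadjusted p of limma (460 and 530). With 1 library left out the high genes numbered 268 to 488, the low genes 380 to 502 and the genes called by limma 0 to 1. The gene called by limma was 1 without Obese 1 and 1 without Obese 2. The smallest adjusted p of limma lay between 0.0103 and 0.733 over all alternatives.

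Of 143 named genes that met the criteria none changed direction, 120 kept the criteria under all 3 scalings and 47 without each library in turn. Where the groups of a gene do not overlap, leaving out a library cannot change its direction, so that part was fixed in advance. Of the 11 summed levels without overlap, which include 2 marker lists, 5 had none under every scaling: collagens, trophic factors, nuclear receptors, keratins, and T and NK cell genes. No paired analysis was possible because the Obese and Lean libraries share no replicate numbers. Depth limits genes of few reads, and 3 pigs per group limit the rest.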

Other observations

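Genes of the X chromosome were more often low than high. Of 709 such genes 6 (0.846%) had high and 24 (3.39%) low 5hmC, while on the autosomes 385 of 18196 (2.12%) were high and 434 (2.39%) low. All 3 Obese libraries lay below all 3 Lean libraries in 63 X-linked genes and above them in 20, and their median log2 ratio was -0.10 against 0.01 on the autosomes. The X chromosome took 2.2%, 2.17% and 2.27% of the counts of Obese 1, 2 and 3 and 2.39%, 2.36% and 2.45% of those of Lean 7, 8 and 9, without overlap. The median X-linked gene had 8.5 normalized counts and the median autosomal gene 12.7, and the part of this lower level was not tested. All pigs were female. KCND1 and GLRA2 are X-linked genes among those described above.

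Of the other chromosomes, those named here were picked for their extreme shares after the values were seen. Over chromosomes 1 to 18 the share of high genes ran from 1.26% (chromosome 10) to 3.3%, and that of low genes from 0.627% to 3.29%. On chromosome 3, 42 of 1274 genes (3.3%) were high and 27 (2.12%) low, against 2.12% and 2.39% on all autosomes. On chromosome 11, 9 of 319 (2.82%) were high and 2 (0.627%) low, which are few genes. Chromosome 4 had 21 high (1.97%) and 35 low (3.29%) of 1065 genes.

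Unnamed gene models were more often low than high, although most low genes were named ones. Of 2828 LOC models 39 (1.38%) were high and 96 (3.39%) low, with a median log2 ratio of -0.10, whereas the 16105 named genes had 352 high (2.19%) and 365 low (2.27%). The balance of high and low genes shifted with level, low ones being more numerous from 3 to 30 normalized counts and high ones from 30 to 1000. Among genes with a mean of 3 to 10 normalized counts 115 were high and 172 low, among those of 10 to 30 it was 98 high and 166 low, among those of 30 to 100 it was 82 high and 66 low, and among those of 100 to 1000 it was 15 high and 5 low. The median log2 ratios of these ranges, in the same order, were -0.02, -0.02, 0.03 and 0.07. Gene families were set against all genes without matching for level, and their median levels differed, as with 32.9 for collagen chains and 4.1 for keratin genes. The part of level in the family differences was not tested. With all genes with a position split into 4 bins by the length of their span, the bin of the longest had 61 high and 107 low genes, whereas the other bins, from the shortest up, were near balance with 125 and 138, 116 and 121, and 89 and 93.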
